A study of Mus musculus with 12 samples.

Results

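Nuclear receptors are transcription factors, many of them switched on by small fat-soluble ligands such as steroids, thyroid hormone, retinoids, fatty acids and bile acids. The genes described here are 44 members of this superfamily in mouse liver. They were chosen by gene symbol, through the platform annotation of the array, with no measured value in the rule, although the set was proposed with earlier results of these data known. The list leaves out the clock repressors Nr1d1 and Nr1d2. Of the 44 genes, 42 had at least 1 probe set that carried their symbol alone, and these 42 genes had 112 of the 45101 probe sets on the array. Nr1h2 and Nr2e3 had no such probe set and were not analysed here, and 1 further probe set that is annotated to Ppard together with another gene was left out. By role the list holds 8 steroid and estrogen-related receptors, 8 lipid sensors with their partner repressors, 3 xenobiotic sensors with the vitamin D receptor, 8 thyroid hormone, retinoic acid and retinoid X receptors, 5 receptors of the HNF4, NR5 and NR6 families and 12 orphan receptors.

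The samples were livers of adult female mice on a B6.129 background. Mice were wild type (WT, Esr1+/+) or αERKO (Esr1-/-), in which the gene of estrogen receptor alpha is disrupted in the germ line, so that its loss is not limited to hepatocytes. For 2 weeks, mice of each genotype ate either NIH-31 chow, here the normal diet, or a research diet that holds 60 kcal% fat. The 4 groups held 3 samples each, on 12 one-colour expression arrays. A diet difference compares the diets as fed, with all their ingredients. Whether the 3 samples of a group are 3 animals is not stated in the labels, so the p-values reflect the spread among samples alone, and that spread may be technical.

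In liver the superfamily divides the work of fuel and toxin handling. PPAR alpha senses fatty acids and drives their oxidation, LXR (Nr1h3) senses oxysterols, and FXR (Nr1h4) senses bile acids and acts partly through the repressor SHP (Nr0b2). PXR (Nr1i2) and CAR (Nr1i3) sense foreign compounds and induce cytochrome P450 enzymes, while HNF4 alpha and LRH-1 (Nr5a2) hold up the hepatocyte program. Many of these receptors bind DNA as pairs with the retinoid X receptor RXR alpha (Rxra), on repeats of the half-site AGGTCA.

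The promoters of 3 members are shown because the results turn on their transcripts: the disrupted gene Esr1, Rora, which was the member called for diet, and Nr1h4, whose signal had the smallest unadjusted diet p-value after Rora. Each stretch is the 250 bases before a start of the gene in the RefSeq annotation of build GRCm38.p6, written 5′ to 3′ on the strand of the gene, with the half-site AGGTCA or its reverse complement TGACCT in capitals.

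Esr1, chr10:4611739-4611988, plus strand: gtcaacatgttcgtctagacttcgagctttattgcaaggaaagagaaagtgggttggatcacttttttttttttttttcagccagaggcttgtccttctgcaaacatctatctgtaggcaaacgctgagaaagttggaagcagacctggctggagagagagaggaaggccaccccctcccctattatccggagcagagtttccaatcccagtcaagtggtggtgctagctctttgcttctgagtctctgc

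Rora, chr9:68653536-68653785, plus strand: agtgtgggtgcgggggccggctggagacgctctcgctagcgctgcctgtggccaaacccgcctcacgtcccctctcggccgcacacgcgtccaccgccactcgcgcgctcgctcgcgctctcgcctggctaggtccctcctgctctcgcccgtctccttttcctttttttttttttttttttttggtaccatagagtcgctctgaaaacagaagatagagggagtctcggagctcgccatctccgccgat

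Nr1h4, chr10:89506659-89506908, minus strand: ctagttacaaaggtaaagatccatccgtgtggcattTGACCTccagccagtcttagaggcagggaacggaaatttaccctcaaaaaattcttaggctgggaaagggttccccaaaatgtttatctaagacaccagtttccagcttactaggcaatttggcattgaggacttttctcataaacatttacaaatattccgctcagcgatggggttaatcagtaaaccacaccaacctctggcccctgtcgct

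The windows shown for Esr1 and Rora held 0 half-sites and that of Nr1h4 held 1. RefSeq starts were found for 40 of the 44 members, with 61 promoter windows in all. The half-site AGGTCA, on either strand, stood in 10 of these 61 windows (16.4%), against 14.02% of the 32851 windows of all genes. The genes with it were Nr0b1, Nr1h4, Nr5a2, Nr6a1, Pparg, Rarg, Rxra, Rxrg and Thrb. Longer elements were in 0 of the 61 windows. The inverted repeat of GGTCA with 3 bases between, to which estrogen receptors bind, was in 0.0639% of all windows, the direct repeat of AGGTCA with 1 base between in 0.0335%, and that with 4 bases between in 0.0152%. TAGGTCA, a half-site preceded by T, was also in 0 member windows and in 2.23% of all windows. Both strands were searched, and the direct repeats and TAGGTCA contain the half-site, so these counts are not separate. They describe letters in these windows only.

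Hepatocyte markers were bright on all arrays, with a mean log2 signal of 9 genes between 15.3 and 15.9. Transcripts of other tissues were present on some arrays. Averaged over 10 genes of pancreatic acinar cells, the log2 signal was 9.93 to 13.8 on 4 arrays (WT normal replicate 2, WT high-fat replicates 2 and 3, and αERKO normal replicate 1) and 5.44 to 6.44 on the other 8. For 9 skeletal muscle genes it reached 10.542 (replicate 1 of αERKO on the normal diet) and 8.57 (replicate 2 of αERKO on the high-fat diet), with at most 7.05 on the other arrays. For Rora and for the called genes of the target lists, calls that were lost without these arrays are given below with their adjusted p. In whole tissue, fewer cells of a type and less RNA per cell cannot be told apart.

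A signal is the linear MAS5 value of a probe set, scaled by the authors to a common level on each array. Where a gene had several probe sets, the brightest stands for the gene, and other probe sets are described for some members only. Differences are of log2(signal + 16), with standard errors from a limma model of all 12 arrays, and p-values carry a Benjamini-Hochberg adjustment across the 12264 genes that were bright enough to test. Genes with an adjusted p under 0.05 count as called. Of the 42 members, 33 passed this filter, which asked for a signal above the median of the array on at least 3 of the 12 arrays. Of those 33, 27 were above it on all 12 arrays and 6 (Esrrb, Nr2f1, Nr4a2, Pgr, Ppard and Thrb) on 3 to 10 arrays.

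The other 9 members were dim and were not tested. Esr2, the gene of estrogen receptor beta, had signals of 3.8 to 58.7 over the 12 arrays with a median of 19.1, and exceeded the array median on 0 arrays. The adrenal and gonadal receptors Nr5a1 (8.2 to 81.6) and Nr0b1 (1.7 to 29.8), the brain receptor Nr2e1 (4.6 to 77.0) and Hnf4g (6.4 to 83.4) also exceeded it on 0 arrays. Rara, a retinoic acid receptor, ranged from 9.0 to 143 and passed the median on 1 array, Rorb from 6.0 to 113 and Nr4a3 from 12.4 to 128, each on 2. Vdr, the vitamin D receptor, had a median of 41.0, and its highest value of 159 was in WT normal replicate 2, the array with the highest acinar score; the part of pancreatic transcripts in it was not tested.

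The count of called members stands beside the share of all tested genes that were called. For diet in WT 0 of the 33 members were called, against 0.0734% of all 12264 genes, and 3 had an unadjusted p under 0.05. For diet in αERKO 1 was called (Rora, lower), against 0.481% of all genes. For genotype 1 was called on each diet (Esr1, lower), against 1.22% of all genes on the normal diet and 1.98% on the high-fat diet. The difference between the diet responses of the genotypes, the interaction, gave 0 calls among the members and 0% of all genes, with 3 members at an unadjusted p under 0.05. Among the 75 member probe sets that passed the filter, 0, 1, 2, 2 and 0 were called in these 5 comparisons, against 0.0278%, 0.199%, 0.756%, 1.38% and 0% of 21558 probe sets.

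Groups did not overlap where the 3 samples of 1 group all lay above or all below the 3 of the other, and the share of all genes for which this held stands beside each count. For diet in WT, 3 of 33 members were higher without overlap (Nr1h4, Nr3c1 and Rarb; 7.03% of all genes) and 3 lower (Hnf4a, Nr4a2 and Rxra; 7.31%). For diet in αERKO, 1 was higher (Nr1h4; 9.07%) and 3 lower (Nr1i2, Nr2c1 and Rora; 7.66%). In αERKO against WT on the normal diet, 2 were higher (Rarg and Rora; 6.18%) and 3 lower (Esr1, Nr2c1 and Ppara; 9.62%). In the same contrast on the high-fat diet, 2 were higher (Nr2f6 and Pparg; 10%) and 7 lower (Esr1, Esrrg, Nr1i2, Nr2c2, Ppara, Rarb and Rora; 12.5%). Not all of these hold on other probe sets. Another Nr2c1 probe set was higher in αERKO on the normal diet without overlap, at 396, 565 and 427 against 362, 316 and 329 (0.43 ± 0.17, adjusted p = 0.359), while that of the count above was lower.

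**Figure D1:**
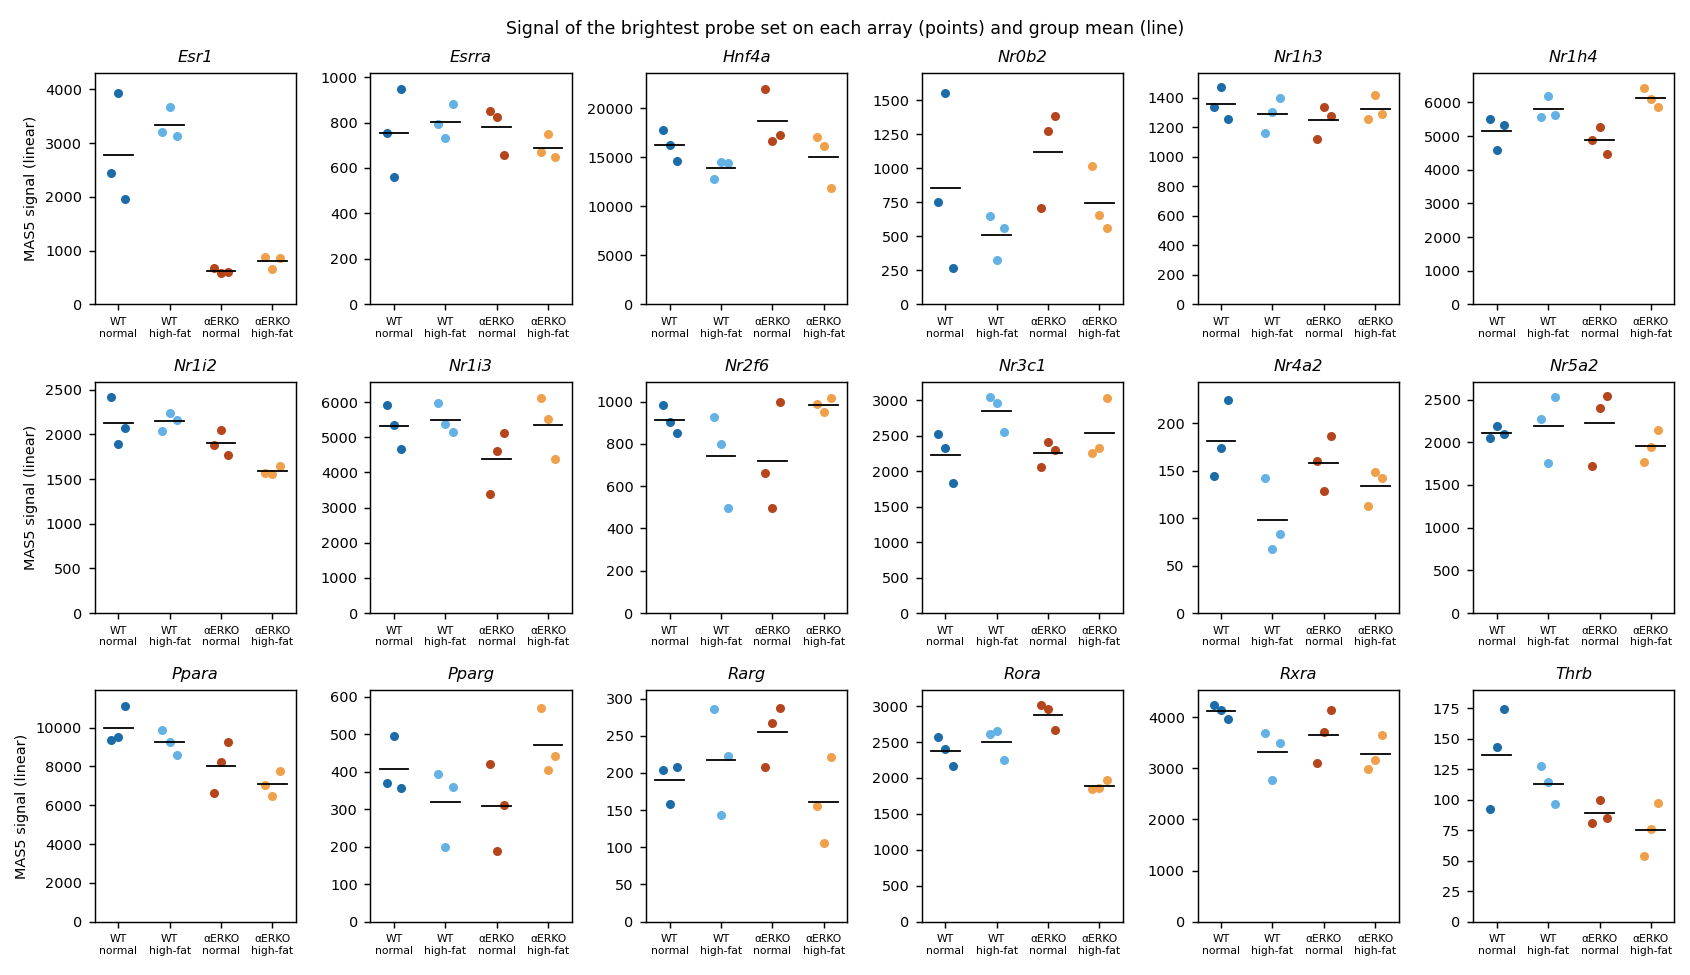
Linear MAS5 signal (vertical axes, from 0) of the brightest probe set of 18 named members on each of the 12 arrays, in 4 groups of 3, with group means as lines. Esr1 separates the genotypes, Rora is lowest in αERKO livers on the high-fat diet (1847 to 1968), and Esrra, Nr0b2, Nr1h3, Nr1i3, Nr5a2 and Thrb are the members shown that overlap in all 4 comparisons of 2 groups.

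Esr1 encodes the receptor that the knockout removes, and its transcript checks the labels. Its signal was 2438, 3930 and 1963 in WT on the normal diet, 3212, 3676 and 3140 in WT on the high-fat diet, 681, 586 and 601 in αERKO on the normal diet, and 885, 663 and 858 in αERKO on the high-fat diet. Every αERKO sample lay below every WT sample, with no overlap. The difference was -2.07 ± 0.20 on the normal diet (adjusted p = 5.75e-05), which is 0.238 of the WT level (95% confidence interval 0.176 to 0.323), and -2.05 ± 0.20 on the high-fat diet (adjusted p = 8.55e-05). On another Esr1 probe set the signal fell alike, by 2.30 and 2.13, and the remaining probe set was dim, at 29.2 to 120 in 5 WT samples, 7.6 in WT normal replicate 2 and 5.3 to 23.6 in αERKO. Whether these probe sets lie within the disrupted stretch of Esr1 is not known here, so the signal left in αERKO cannot be assigned. High-fat diet gave 0.32 ± 0.20 in WT and 0.35 ± 0.20 in αERKO, neither called.

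Esrra, the estrogen-related receptor alpha that controls mitochondrial genes with PGC-1 coactivators, had signals of 755, 558 and 949 in WT and 851, 826 and 658 in αERKO on the normal diet, and 793, 730 and 880 in WT and 673, 749 and 647 in αERKO on the high-fat diet. The groups overlapped, and the interval of the genotype difference on the high-fat diet ran from -0.59 to 0.17. Esrrg, the estrogen-related receptor gamma, was below WT without overlap on the high-fat diet, at 252, 235 and 292 against 436, 360 and 335 (-0.51 ± 0.21, adjusted p = 0.268). Its 3 tested probe sets were all below WT on both diets. Pgr, the progesterone receptor, passed the filter on 3 arrays only and ranged from 1.4 to 123. Esrrb, an estrogen-related receptor, lay between 31.2 and 164.

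Nr3c1, the glucocorticoid receptor, had signals of 2519, 2334 and 1841 in WT on the normal diet and 3047, 2965 and 2549 on the high-fat diet. The WT groups did not overlap, but the difference of 0.36 ± 0.15 was not called (adjusted p = 0.502), and it was 0.23 without WT normal replicate 3 and 0.24 as the mean of probe sets. In αERKO the values were 2065, 2408 and 2295 on the normal diet and 2253, 2329 and 3033 on the high-fat diet, which overlap (0.16 ± 0.15, adjusted p = 0.773). Of its 5 tested probe sets, 4 were higher on the high-fat diet in each genotype. Nr3c2, the mineralocorticoid receptor, was 0.50 ± 0.34 higher on the high-fat diet in WT, which is within its spread (adjusted p = 0.742).

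Among the lipid sensors the transcript of Ppara was lower in αERKO on both diets by a small step that did not pass the test. Its signal was 9372, 9526 and 11129 in WT and 6611, 8224 and 9275 in αERKO on the normal diet. With the high-fat diet it was 9894, 9259 and 8607 in WT and 7051, 6455 and 7779 in αERKO. All αERKO samples lay below all WT samples of the same diet, closely so on the normal diet. The differences were -0.33 ± 0.13 on the normal diet (adjusted p = 0.307) and -0.38 ± 0.13 on the high-fat diet (adjusted p = 0.147, and 0.0171 to 0.438 over 26 alternatives). The lowest p came with array weights, which give noisier arrays less influence. The normal-diet difference was -0.18 with array medians centred and -0.19 without the arrays high in muscle markers. The 3 tested Ppara probe sets were all below WT on both diets, by -0.33 to -0.11 and by -0.40 to -0.30. Diet gave -0.11 ± 0.13 in WT and -0.17 ± 0.13 in αERKO.

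Pparg, the fat-storage receptor that is abundant in adipocytes, had signals of 369, 495 and 357 in WT and 421, 189 and 312 in αERKO on the normal diet. On the high-fat diet it was 394, 200 and 360 in WT and 569, 403 and 442 in αERKO. All αERKO samples lay above all WT samples on the high-fat diet, while on the normal diet the genotypes overlapped. The genotype difference was -0.44 ± 0.29 on the normal diet and 0.59 ± 0.29 on the high-fat diet (adjusted p = 0.584 and 0.36), and the interaction was 1.03 ± 0.41 (unadjusted p = 0.0243, adjusted p = 0.786). The summed signal of 2 tested adipocyte markers was 1101 to 1835 in WT and 1101 to 2322 in αERKO on the high-fat diet; its part in the Pparg values was not tested. Ppard, the ubiquitous PPAR delta, was dim and scattered from 12.3 to 153.

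Nr1h4, the bile acid receptor FXR, was among the members with the smallest spread. Its signal was 5509, 4584 and 5319 in WT on the normal diet and 5557, 6197 and 5629 on the high-fat diet, and 4883, 5273 and 4470 in αERKO on the normal diet and 6439, 6103 and 5862 on the high-fat diet. In both genotypes every sample on the high-fat diet was above every sample on the normal diet. The differences were 0.18 ± 0.10 in WT (adjusted p = 0.698) and 0.33 ± 0.10 in αERKO (unadjusted p = 0.00566, adjusted p = 0.216). The latter is 1.26 times the normal-diet level (95% confidence interval 1.08 to 1.47). Genotype intervals were narrow, from -0.29 to 0.14 on the normal diet and from -0.14 to 0.30 on the high-fat diet.

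Nr1h3, the oxysterol receptor LXR alpha, varied little. Its signal was 1334, 1473 and 1258 in WT on the normal diet, 1162, 1302 and 1397 in WT on the high-fat diet, 1118, 1339 and 1279 in αERKO on the normal diet, and 1256, 1420 and 1287 in αERKO on the high-fat diet. All groups overlapped. Its differences between 2 groups lay between -0.12 and 0.09, with 95% confidence intervals within -0.38 and 0.35.

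Nr0b2 encodes SHP, a repressor without a DNA-binding domain that FXR induces. It varied widely within groups, with signals of 754, 1554 and 267 in WT on the normal diet, 651, 323 and 559 in WT on the high-fat diet, 710, 1274 and 1386 in αERKO on the normal diet, and 1016, 655 and 564 in αERKO on the high-fat diet. Its standard deviation within groups was 0.752 on the log2 scale, above that of 94.4% of the genes tested, and all groups overlapped. The interval of the diet difference in αERKO, from -1.60 to 0.46, leaves large changes of either sign possible.

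Of the xenobiotic sensors, Nr1i2, the gene of PXR, was lowest in αERKO on the high-fat diet. Its signal was 2422, 1887 and 2068 in WT and 1880, 2051 and 1764 in αERKO on the normal diet, which overlap. On the high-fat diet it was 2037, 2240 and 2162 in WT and 1572, 1562 and 1647 in αERKO, which do not. The genotype difference on the high-fat diet was -0.43 ± 0.11, or 0.745 of the WT level (95% confidence interval 0.628 to 0.883), with an adjusted p of 0.0789. Over 26 alternatives the adjusted p ran from 0.0217, with array weights, to 0.522. On its other probe set the αERKO samples were also all lower, by a smaller -0.18 (adjusted p = 0.731). Diet gave 0.02 ± 0.11 in WT and -0.25 ± 0.11 in αERKO (adjusted p = 0.475), and the interaction of -0.27 ± 0.16 was not called.

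Nr1i3, the gene of CAR, had signals of 5911, 5343 and 4678 in WT and 3395, 4606 and 5126 in αERKO on the normal diet, and 5963, 5390 and 5161 in WT and 6129, 5530 and 4384 in αERKO on the high-fat diet. The genotypes overlapped on both diets (-0.29 ± 0.16, adjusted p = 0.495, and -0.05 ± 0.16, adjusted p = 0.918). The lowest value, 3395, was in αERKO normal replicate 1, the array with pancreatic and muscle transcripts.

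Rora encodes a receptor that activates clock and lipid genes through single half-sites, at which Nr1d1 and Nr1d2 repress. Its signal was 2565, 2397 and 2160 in WT on the normal diet and 2606, 2651 and 2253 in WT on the high-fat diet, which overlap. In αERKO it was 3010, 2958 and 2666 on the normal diet and 1847, 1859 and 1968 on the high-fat diet. The αERKO samples were thus above all WT samples on the normal diet and below all of them on the high-fat diet.

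Rora fell in αERKO on the high-fat diet by 0.60 ± 0.11 (adjusted p = 0.0304), to 0.660 of its normal-diet level (95% confidence interval 0.561 to 0.776). In WT the diet difference was 0.08 ± 0.11 (adjusted p = 0.902). The genotype difference was 0.28 ± 0.11 on the normal diet (adjusted p = 0.322) and -0.40 ± 0.11 on the high-fat diet (adjusted p = 0.0836). Over 26 alternatives the adjusted p of the latter ran from 0.0151, with array weights, to 0.514, and its value from -0.47 to -0.22. The normal-diet difference was 0.42 with array medians centred (adjusted p = 0.397). The interaction was -0.68 ± 0.15 (unadjusted p = 0.00062), and it was not called over all genes (adjusted p = 0.373). So the diet response of Rora passed the test in αERKO, but the difference between the genotypes in that response did not.

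The Rora call was close to the threshold. It was lost in 14 of 26 alternatives, in which the difference ran from -0.65 to -0.44 with adjusted p from 0.00817 to 0.338. Leaving out a single sample gave adjusted p of 0.102, 0.114 and 0.0606 without αERKO normal replicates 1, 2 and 3, of 0.13, 0.146 and 0.0505 without αERKO high-fat replicates 1, 2 and 3, and of 0.05 without WT high-fat replicate 2. Without the arrays with pancreatic transcripts it was -0.57 (adjusted p = 0.206), without those with muscle transcripts -0.55 (adjusted p = 0.338), and with both marker scores as covariates -0.59 (adjusted p = 0.0993). It was -0.59 after centring on array medians (adjusted p = 0.294) and -0.44 as the mean of all its probe sets (adjusted p = 0.204), which also took the genotype difference on the normal diet to 0.0038. The variance model mattered too, with adjusted p = 0.102 without an intensity trend and 0.0882 with only the groups compared.

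Rora had 9 probe sets, of which 8 passed the filter. In αERKO all 8 were lower on the high-fat diet, 6 of them without overlap and 6 with an unadjusted p under 0.05, and 1 was called. Another of them had 2190, 2122 and 2334 in αERKO on the normal diet and 1580, 1441 and 1864 on the high-fat diet. A further probe set had 2040, 1656 and 1711 against 1204, 1152 and 1211. In WT, 4 of the 8 were lower on the high-fat diet and 0 had an unadjusted p under 0.05. The interaction was negative in all 8, with an unadjusted p under 0.05 in 4. On the normal diet 3 probe sets were higher in αERKO without overlap and 2 were lower with overlap, and on the high-fat diet all 8 were lower, 4 without overlap. Probe sets of 1 gene share their samples and are not replicates.

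**Figure D2:**
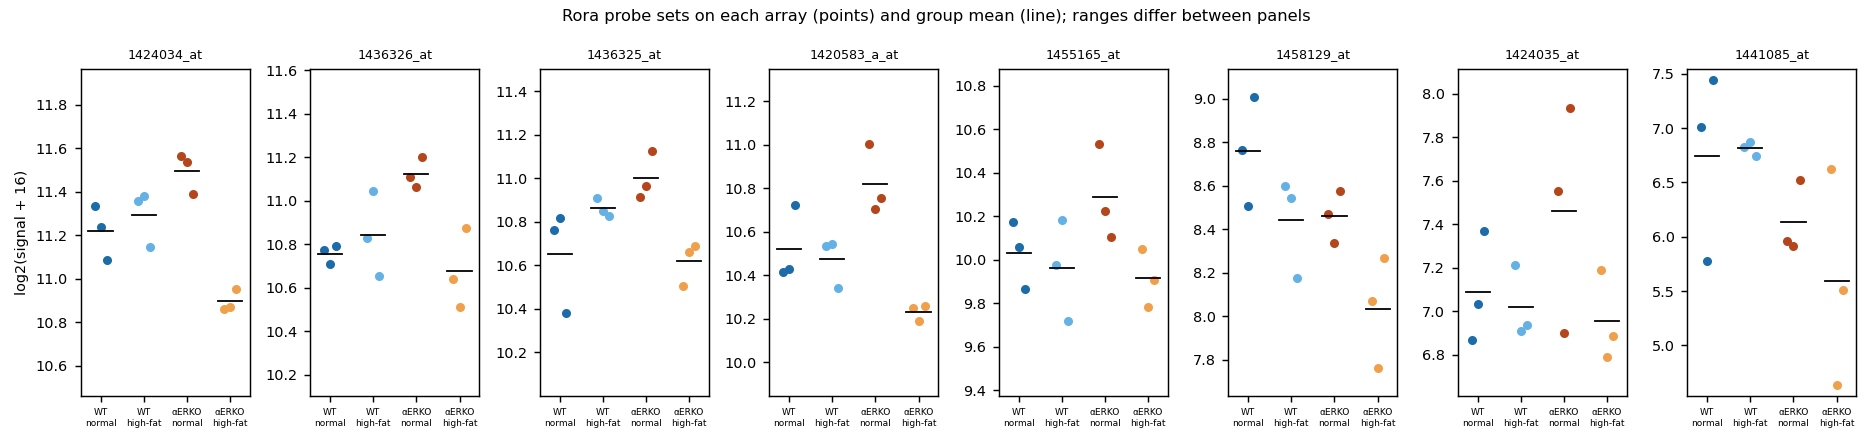
Values of the 8 tested Rora probe sets on each array as log2(signal + 16) (vertical axes, whose ranges differ), by genotype and diet, with group means as lines. In αERKO the mean on the high-fat diet is below that on the normal diet in all 8 panels, while WT means differ in either direction.

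Of the thyroid hormone and retinoid receptors 7 were tested. Thrb, the thyroid hormone receptor beta of liver, had signals of 92.4, 143 and 175 in WT and 81.2, 99.7 and 85.3 in αERKO on the normal diet, and 128, 115 and 96.2 in WT and 53.4, 75.8 and 97.4 in αERKO on the high-fat diet. It was near the array median and the genotypes overlapped, by -0.51 ± 0.31 on each diet (adjusted p = 0.559 and 0.466). Thra, the other thyroid hormone receptor, lay between 201 and 431 in all groups.

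Rxra, the shared partner of most liver receptors, had signals of 4242, 4155 and 3976 in WT on the normal diet and 3688, 2774 and 3494 on the high-fat diet. In αERKO it had 3106, 3708 and 4141 on the normal diet and 2998, 3168 and 3661 on the high-fat diet. The WT groups did not overlap, with a difference of -0.32 ± 0.13 (adjusted p = 0.518), and its second probe set gave 0.16 with overlap. The WT difference was -0.078 as the mean of both probe sets, -0.15 without the arrays high in acinar markers and -0.20 without WT high-fat replicate 2. The genotype difference on the high-fat diet was -0.01 ± 0.13, with an interval from -0.30 to 0.27. Rxrb, the partner receptor RXR beta, gave -0.31 ± 0.20 for genotype on the high-fat diet and Rxrg, RXR gamma, -0.62 ± 0.27 (adjusted p = 0.522 and 0.277). Rxrg passed the threshold without αERKO high-fat replicate 3, where its signal of 415 stood apart from 164 and 214 (-0.99 ± 0.21, adjusted p = 0.0295), and with array weights (adjusted p = 0.0443). Over 26 alternatives its adjusted p ran from 0.0295 to 0.686 and its value from -0.99 to -0.36.

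Rarb, a retinoic acid receptor that retinoic acid itself induces, was lower in αERKO on the high-fat diet without overlap, at 148, 222 and 230 against 338, 283 and 406 (-0.74 ± 0.30, adjusted p = 0.255). On the normal diet it was 81.5, 244 and 171 against 225, 268 and 248, which overlap (-0.64 ± 0.30, adjusted p = 0.415). Rarg, another retinoic acid receptor, had 204, 158 and 208 in WT and 208, 268 and 287 in αERKO on the normal diet, and 286, 144 and 223 in WT and 156, 106 and 222 in αERKO on the high-fat diet. Its diet difference in αERKO was -0.65 ± 0.28 (unadjusted p = 0.0369, adjusted p = 0.43), and the groups overlapped. It was -0.41 without αERKO high-fat replicate 2. Rarg was above WT on the normal diet without overlap (0.39 ± 0.28, adjusted p = 0.621), while its second probe set gave -0.48 with overlap.

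Hnf4a, a constitutive activator of hepatocyte genes, had signals of 17780, 16228 and 14619 in WT on the normal diet and 12752, 14564 and 14388 on the high-fat diet. In αERKO it had 21945, 16687 and 17320 on the normal diet and 17120, 16136 and 11900 on the high-fat diet. The WT groups did not overlap. The diet differences were -0.22 ± 0.14 in WT (adjusted p = 0.724) and -0.32 ± 0.14 in αERKO (adjusted p = 0.446). Of its 4 tested probe sets, 3 were lower and 1 was higher on the high-fat diet in WT (-0.24 to 0.08). In αERKO all 4 were lower (-0.38 to -0.11). For genotype its 4 tested probe sets disagreed, from -0.31 to 0.53 on the normal diet and from -0.33 to 0.21 on the high-fat diet, so that a single value for the gene is uncertain.

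Nr5a2, the phospholipid-binding receptor LRH-1, had signals of 2056, 2192 and 2096 in WT and 1726, 2406 and 2539 in αERKO on the normal diet, and 2268, 1753 and 2536 in WT and 1775, 1947 and 2147 in αERKO on the high-fat diet. All groups overlapped, and its differences between 2 groups were between -0.17 and 0.05. Nr5a2 is also a pancreatic acinar gene. Its signal was 1726 to 2536 on the 4 arrays with acinar transcripts and 1775 to 2539 on the others, ranges that mix genotypes and diets. The part of pancreatic transcripts in it was not tested. Nr6a1, the germ cell nuclear factor, gave -0.24 ± 0.29 for genotype on the high-fat diet, within its spread.

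Of the 8 tested orphan receptors, Rora aside, Nr4a2, an immediate early gene, had its largest difference for diet in WT. Its signal was 145, 174 and 224 on the normal diet and 142, 67.3 and 83.5 on the high-fat diet in WT, and 160, 128 and 187 on the normal diet and 112, 148 and 142 on the high-fat diet in αERKO. The WT groups just failed to overlap (-0.83 ± 0.28, unadjusted p = 0.0113, adjusted p = 0.448). Both of its tested probe sets were lower without overlap in WT. The difference was -0.31 without the arrays high in acinar markers and -0.32 as the mean of probe sets. Nr4a1, from the same family, gave 0.14 ± 0.29 for diet in WT and lay between 138 and 412.

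Nr2f6, a COUP-related repressor, had signals of 984, 905 and 852 in WT and 664, 498 and 997 in αERKO on the normal diet, and 925, 801 and 495 in WT and 990, 950 and 1015 in αERKO on the high-fat diet. Its interaction was 0.84 ± 0.34 (unadjusted p = 0.0251, adjusted p = 0.786). The second probe set gave -0.16, in the opposite direction, and the interaction was 0.34 as the mean of probe sets and 0.46 without the arrays high in acinar markers. Nr2f2, COUP-TFII, which is known from endothelial and stromal cells, lay between 630 and 1467 with 0 calls, and Nr2f1, COUP-TFI, between 51.4 and 106.

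The testicular receptors Nr2c1 and Nr2c2 were below WT in αERKO on the high-fat diet, by -0.45 ± 0.19 (adjusted p = 0.263) and -0.44 ± 0.16 (adjusted p = 0.2). Over 26 alternatives the adjusted p of Nr2c2 ran from 0.039, with array weights, to 0.653. Of the 5 tested Nr2c1 probe sets 4 were below WT on that diet and 1 was above, from -0.45 to 0.19. For Nr2c2 the samples did not overlap, at 837, 876 and 1209 against 1212, 1403 and 1321, the gap being a few units. The 4 tested Nr2c2 probe sets were all below WT on that diet, 3 of them without overlap.

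**Figure D3:**
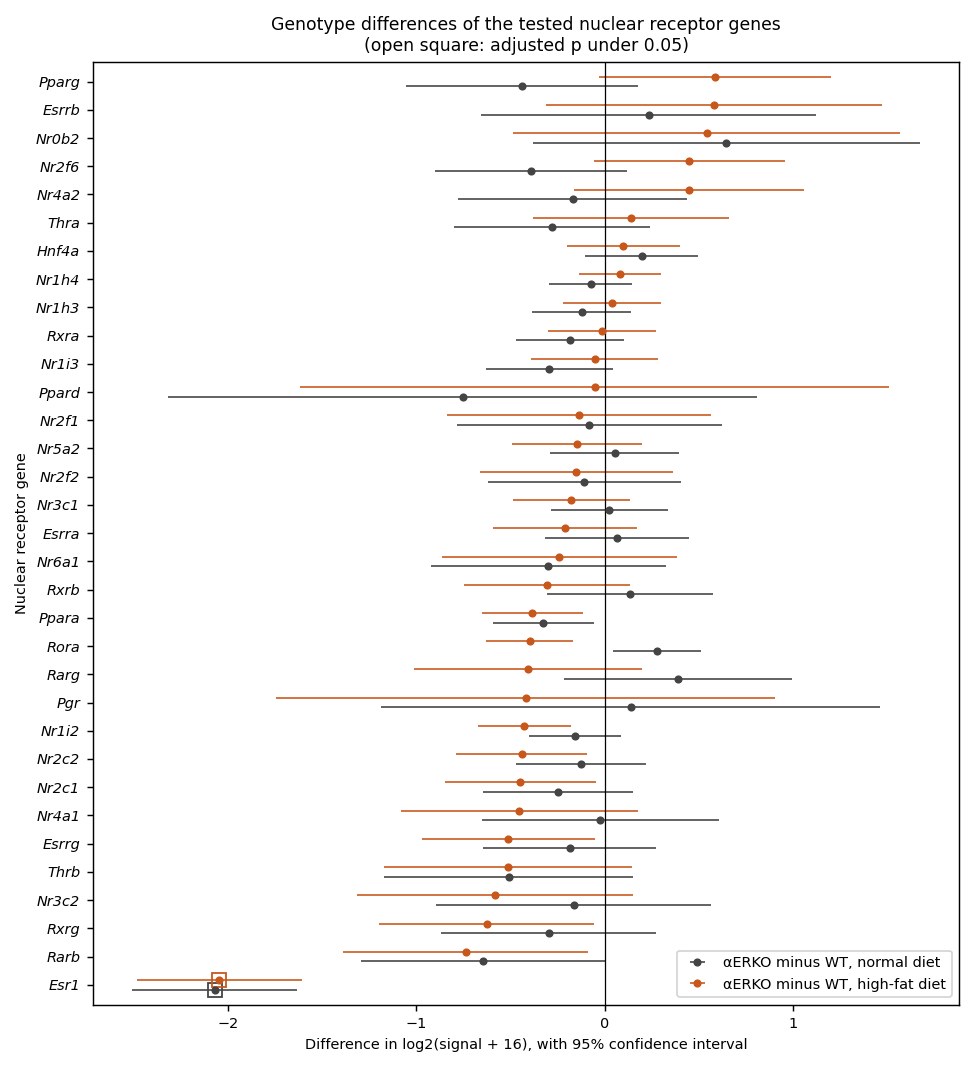
αERKO minus WT differences in log2(signal + 16) (horizontal axis) of the 33 tested members, with 95% confidence intervals, on the normal diet (grey) and the high-fat diet (orange). Only Esr1 is marked as called, at -2.07 and -2.05, and Rora lies on opposite sides of 0 on the 2 diets.

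In αERKO on the high-fat diet 24 of the 33 were below WT, with a median of -0.21 against -0.03 for all genes tested, 54.4% of which were below. All 9 members with an unadjusted p under 0.05 there, the disrupted Esr1 among them, were lower. Of all genes 15.2% had such a p in either direction, and the share of lower ones alone was not counted. On the normal diet 23 of 33 were below WT, with a median of -0.16 against -0.05 for all genes, 57.8% of which were below. Centring on array medians moved the median of all genes to 0.07 on the high-fat diet and to 0.09 on the normal diet, and that of the members to -0.11 and -0.02, with 21 and 17 of 33 below WT. Relative to all genes the members' medians were -0.18 on the high-fat diet and -0.11 on the normal diet. Centring shifts all genes of an array alike, so it cannot change these relative medians. Taking the mean of all probe sets of a gene left -0.05 and -0.02. The relative median on the normal diet was -0.061 without αERKO normal replicate 1, -0.068 without WT normal replicate 3 and -0.17 without WT normal replicate 2. On the high-fat diet it was -0.12 without αERKO high-fat replicate 2 and -0.27 without the arrays high in acinar markers. This is a description, and the members were not tested as a set.

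Markers of other cells also differed between the genotypes, for acinar cells through some arrays only. The 10 macrophage markers were all below WT in αERKO on both diets (medians -0.32 on the normal and -0.39 on the high-fat diet) with 0 called. Their summed signal was 21032 to 21228 in WT and 14201 to 20180 in αERKO on the normal diet, and 19498 to 25569 in WT and 15697 to 17853 in αERKO on the high-fat diet. All 10 acinar markers were below WT in αERKO on the high-fat diet (median -3.87, 0 called), with a summed signal of 1425 to 65474 in WT and 1320 to 1413 in αERKO. That gap rested on WT high-fat replicates 2 and 3, with mean log2 signals of 9.93 and 12.5. WT high-fat replicate 1, at 5.835, lay within the αERKO range of 5.44 to 6.05. On the normal diet WT replicate 2 and αERKO replicate 1 were the high arrays (13.8 and 13.5). Of the 9 hepatocyte markers, 8 were below WT in αERKO on the normal diet, 1 of them called (Alb, -0.50 ± 0.10, adjusted p = 0.0266), and 7 on the high-fat diet. The Alb call was lost in 12 of 26 alternatives, among them without any of WT normal replicates 2 and 3 (adjusted p = 0.0502 and 0.103) and αERKO normal replicates 1, 2 and 3 (0.0569, 0.0655 and 0.106), and without the arrays high in acinar (0.13) or muscle markers (0.0742). The part of these shifts in the receptor values was not tested.

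**Figure D4:**
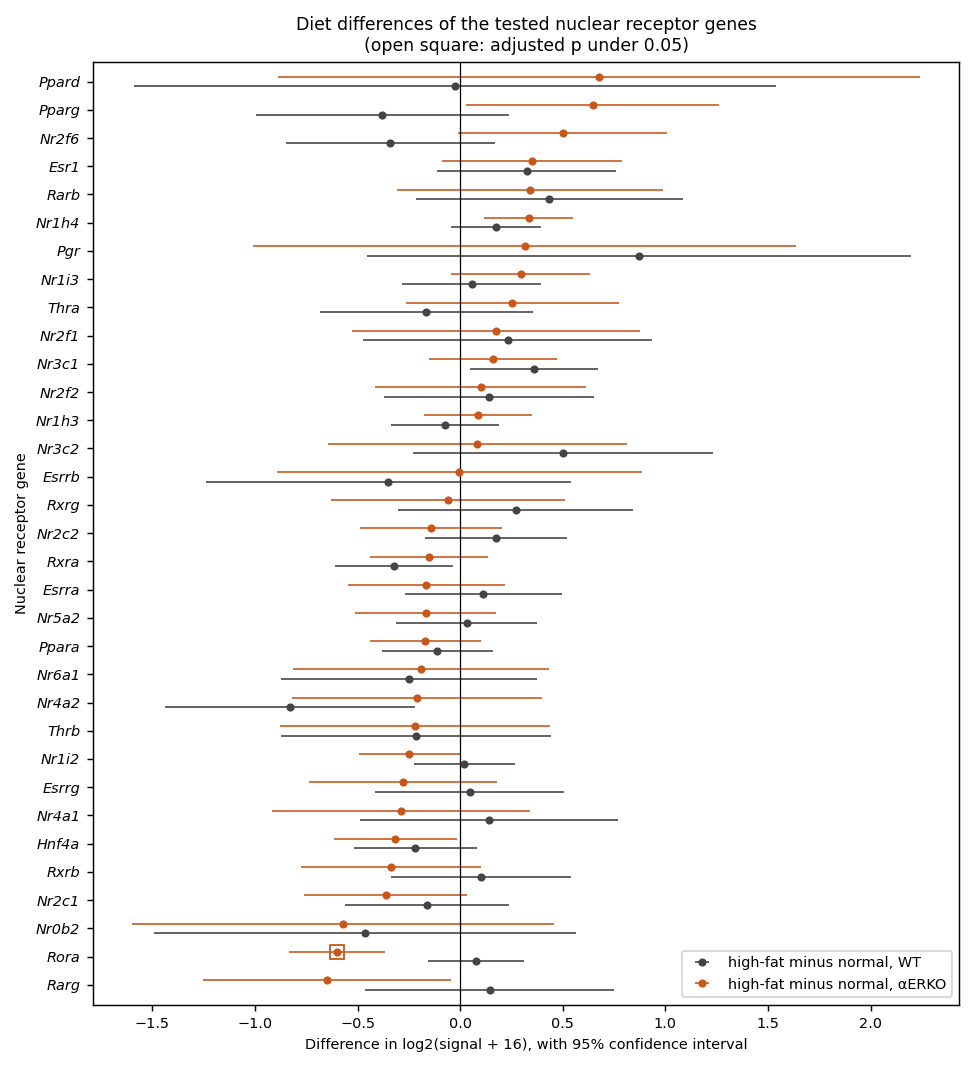
High-fat minus normal diet differences in log2(signal + 16) (horizontal axis) of the 33 tested members, with 95% confidence intervals, in WT (grey) and αERKO (orange). Only Rora in αERKO is marked as called, at -0.60, and Nr1h4 is above 0 in both genotypes (0.18 and 0.33).

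For diet, the members' median was 0.05 in WT against -0.005 for all genes, with 14 of 33 lower on the high-fat diet and 50.8% of all genes lower. In αERKO it was -0.14 against 0.02, with 19 of 33 and 47.5% of all genes lower. That median rested on single samples: it was 0.026, with 16 lower, without αERKO high-fat replicate 2, -0.034 without αERKO high-fat replicate 1 and -0.056 without αERKO normal replicate 3. As the mean of probe sets it was -0.037. In αERKO 6 members had an unadjusted p under 0.05, 2 higher and 4 lower, against 10.3% of all genes. In WT the share was 8.28% of all genes and for the interaction 5.94%. The normal-diet and high-fat groups enter several of these comparisons, so their values are not independent of each other.

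Members also differed in how closely samples of a group resembled each other. The median standard deviation within groups was 0.29 on the log2 scale for the 33 members and 0.25 for all genes tested. It was lowest for Rora (0.104), Nr1h4 (0.107), Nr1i2 (0.113) and Nr1h3 (0.119), and highest for the dim Ppard (1.01), Pgr (0.834) and for Nr0b2. Standard errors of a difference between 2 groups were therefore smaller for those 4 receptors (0.10 to 0.12) than for Nr0b2 (0.48). Of the differences of those 4, only that of Rora for diet in αERKO was called.

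Of the genes of proteins through which receptors act on chromatin, 20 coactivators (such as the Ncoa family, Med1 and Ppargc1a) and 11 corepressors (such as Ncor1 and Hdac3) were tested, and 0 were called in the 5 comparisons, in which 0% to 1.98% of all genes were. In αERKO on the high-fat diet 15 of the 20 coactivators and 9 of the 11 corepressors were below WT, with medians of -0.22 and -0.23. Of all genes 54.4% were below there, with a median of -0.03. The medians of these lists on the normal diet were -0.14 and -0.11, against -0.05 for all genes, 57.8% of which were below. The lists were not tested as sets, and their medians are given for the main setting only.

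Over 10 lists of known receptor targets 33 calls were made in the 5 comparisons. Together with the coactivators and corepressors, these lists held 144 tested entries. Of all genes 0.0734% and 0.481% were called for diet in WT and αERKO. The shares were 1.22% and 1.98% for genotype on the normal and high-fat diet, and 0% for the interaction. Whether the lists exceed these shares was not tested. Counting the 1 called hepatocyte marker, 12 calls held in all alternatives in which the gene was tested (25 for Cyp2b13, otherwise 26) and 0 turned direction. Of the 33, 16 were lost on leaving out some single sample, and those samples are named with each such gene. Several receptors bind the same genes, so the lists are not separate.

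Listed targets of PPAR alpha, among them genes of fatty acid oxidation, mostly lay below WT in αERKO. On the normal diet 19 of 19 tested targets were below (median -0.28), and 2 of them passed the test. Of all genes 57.8% were below there (median -0.05) and 1.22% were called. Other target lists had medians from -0.35 (estrogen receptor) to 0.33 (ROR elements) in that contrast. Below WT were 11 of 13 HNF4 alpha targets and 8 of 9 hepatocyte markers, each with a median of -0.26. On the high-fat diet 17 of the 19 were below (median -0.21), with 2 passing. Of all genes 54.4% were below there (median -0.03) and 1.98% were called. Ehhadh, the peroxisomal bifunctional enzyme, was lower in αERKO by -0.74 ± 0.09 on the high-fat diet (adjusted p = 0.000614), and it fell by 0.79 ± 0.09 with high-fat diet in αERKO (adjusted p = 0.00145). Both calls held in all 26 alternatives. On the normal diet its genotype difference was -0.49 ± 0.09 (adjusted p = 0.0208), a call lost on leaving out any 1 of WT normal replicates 1 and 3 or αERKO normal replicate 1 (adjusted p = 0.0748 to 0.095), with array medians centred (adjusted p = 0.371) and without the arrays high in acinar markers (adjusted p = 0.136) or in muscle markers (adjusted p = 0.121), and in 10 of 26 alternatives in all. Acot2, a mitochondrial thioesterase, was lower in αERKO on the normal diet (-1.01 ± 0.17, adjusted p = 0.00763), a call lost without the arrays high in muscle markers (adjusted p = 0.0582) and with only the groups compared (adjusted p = 0.0508). Acot1, its cytosolic relative, was lower on the high-fat diet (-1.21 ± 0.28, adjusted p = 0.0401), a call lost on leaving out any 1 of WT high-fat replicates 1 and 3 or αERKO high-fat replicates 1 and 2 (adjusted p = 0.131 to 0.173), and in 8 of 26 alternatives in all. With high-fat diet in WT 18 of the 19 were lower (median -0.25) and 0 were called, against 50.8% of all genes lower and 0.0734% called.

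The list of CAR and PXR targets held 17 tested genes. On it, the female-predominant P450 gene Cyp2b13 had mean signals of 14538 ± 1469 in WT and 72.1 ± 2.74 in αERKO on the normal diet. On the high-fat diet its means were 20622 ± 1404 in WT and 411 ± 219 in αERKO (SD, n = 3 for each mean). It was lower in αERKO on both diets (adjusted p = 3.32e-09 and 6.2e-08). The αERKO mean on the normal diet was below the median signal of those arrays (80.5 to 89.9), so the size of a difference from that group depends on the pseudocount. It rose with high-fat diet in αERKO (adjusted p = 0.00484), a call lost in 4 of 25 alternatives: without the arrays high in acinar (adjusted p = 0.0694) or muscle markers (adjusted p = 0.0894), without an intensity trend (adjusted p = 0.0568) and with only the groups compared (adjusted p = 0.0882). Cyp2b9, its close relative, was lower in αERKO on the normal diet (-1.52 ± 0.17, adjusted p = 0.000234) and rose with high-fat diet in αERKO (1.69 ± 0.17, adjusted p = 0.000483). Probes of such near-identical genes can bind each other's transcripts, so their single values are uncertain. Whether CAR or PXR sets the signals of Cyp2b13 and Cyp2b9 in these livers was not tested. Ces2a, a carboxylesterase, fell with high-fat diet in both genotypes, by 1.17 ± 0.12 in WT and 1.22 ± 0.12 in αERKO (adjusted p = 0.00263 and 0.000483). The WT call was lost without the arrays high in acinar markers (adjusted p = 0.117), with array medians centred (adjusted p = 0.126) and without an intensity trend (adjusted p = 0.0853). The list medians lay between -0.14 and 0.13 in the 5 comparisons.

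Other calls on the CAR and PXR list depended on single samples. Gstm1, a glutathione transferase, was lower with high-fat diet in WT (-0.72 ± 0.12, adjusted p = 0.0382), a call lost on leaving out any 1 of WT normal replicates 1, 2 and 3, WT high-fat replicates 1 and 2, αERKO normal replicates 2 and 3 or αERKO high-fat replicate 2 (adjusted p = 0.0548 to 0.258) and without the arrays high in acinar markers (adjusted p = 0.444) or in muscle markers (adjusted p = 0.0503), and in 16 of 26 alternatives in all. Slco1a4, an organic anion transporter, was lower in αERKO on the normal diet (-0.82 ± 0.18, adjusted p = 0.0411), a call lost on leaving out any 1 of WT normal replicates 1 and 3, WT high-fat replicates 1, 2 and 3, αERKO normal replicates 1, 2 and 3 or αERKO high-fat replicate 1 (adjusted p = 0.0511 to 0.17) and without the arrays high in acinar markers (adjusted p = 0.0848) or in muscle markers (adjusted p = 0.0883), and in 17 of 26 alternatives in all. Its difference on the high-fat diet was -0.82 ± 0.18 (adjusted p = 0.0312), a call lost on leaving out any 1 of WT high-fat replicates 1, 2 and 3 or αERKO high-fat replicates 1 and 3 (adjusted p = 0.054 to 0.14) and without the arrays high in acinar markers (adjusted p = 0.395), and in 8 of 26 alternatives in all. Also on that diet, Aldh1a1, a retinaldehyde dehydrogenase, was higher in αERKO (0.41 ± 0.08, adjusted p = 0.0148), a call lost on leaving out any 1 of WT high-fat replicates 1 and 2 or αERKO high-fat replicates 1 and 2 (adjusted p = 0.062 to 0.0882) and without the arrays high in acinar markers (adjusted p = 0.27) or in muscle markers (adjusted p = 0.11), and in 10 of 26 alternatives in all. Cyp2c37, a P450 enzyme, was lower (-0.45 ± 0.10, adjusted p = 0.0366), a call lost on leaving out any 1 of WT high-fat replicates 1 and 3 or αERKO high-fat replicates 1, 2 and 3 (adjusted p = 0.0656 to 0.155) and without the arrays high in acinar markers (adjusted p = 0.254) or in muscle markers (adjusted p = 0.161), and in 12 of 26 alternatives in all.

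Among 7 genes whose control elements bind ROR and REV-ERB receptors, Elovl3, a fatty acid elongase with a clock-controlled rhythm, was higher in αERKO by 3.03 ± 0.20 on the normal diet (adjusted p = 1.54e-06) and 3.26 ± 0.20 on the high-fat diet (adjusted p = 7.42e-07). Cyp7b1, an oxysterol hydroxylase, was higher on the normal diet (1.75 ± 0.21, adjusted p = 0.000323), by 0.82 as the mean of its probe sets (adjusted p = 0.155). With high-fat diet all 7 were above WT in αERKO (median 0.94), and 2 of them were called. Of all genes 54.4% were below WT there, with a median of -0.03. The Rora signal itself also lay below WT on that diet, and a link between it and these genes was not tested. Cry1, a clock repressor, was higher with high-fat diet in αERKO (1.07 ± 0.22, adjusted p = 0.0487), a call lost on leaving out any 1 of WT normal replicates 2 and 3, WT high-fat replicates 1 and 2, αERKO normal replicates 1, 2 and 3 or αERKO high-fat replicates 1, 2 and 3 (adjusted p = 0.05 to 0.193) and without the arrays high in acinar markers (adjusted p = 0.162) or in muscle markers (adjusted p = 0.212), and in 19 of 26 alternatives in all. It was also higher than in WT on that diet (0.96 ± 0.22, adjusted p = 0.0398), a call lost on leaving out any 1 of WT high-fat replicates 1 and 2, αERKO normal replicates 2 and 3 or αERKO high-fat replicates 1 and 3 (adjusted p = 0.0528 to 0.172) and without the arrays high in acinar markers (adjusted p = 0.221), and in 11 of 26 alternatives in all.

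Pltp, the phospholipid transfer protein and 1 of 15 LXR targets, was lower on the high-fat diet in WT (-1.44 ± 0.18, adjusted p = 0.00742), a call lost without the arrays high in acinar markers (adjusted p = 0.117), with array medians centred (adjusted p = 0.0688) and without an intensity trend (adjusted p = 0.0996). In αERKO the difference was -1.09 ± 0.18 (adjusted p = 0.0153), a call lost on leaving out any 1 of αERKO normal replicates 2 and 3 or αERKO high-fat replicates 2 and 3 (adjusted p = 0.0505 to 0.0814), and in 8 of 26 alternatives in all. Scd1, the stearoyl-CoA desaturase, was lower with high-fat diet in WT (-1.50 ± 0.24, adjusted p = 0.0382), a call lost on leaving out any 1 of WT normal replicates 1, 2 and 3, WT high-fat replicates 1 and 2, αERKO normal replicates 2 and 3 or αERKO high-fat replicates 1 and 2 (adjusted p = 0.0563 to 0.173) and without the arrays high in acinar markers (adjusted p = 0.117), and in 18 of 26 alternatives in all. On that diet it was higher in αERKO than in WT (1.13 ± 0.24, adjusted p = 0.0300), a call lost on leaving out any 1 of WT high-fat replicates 1 and 2 or αERKO high-fat replicates 1 and 2 (adjusted p = 0.0757 to 0.142) and without the arrays high in muscle markers (adjusted p = 0.133), and in 10 of 26 alternatives in all. Of 11 FXR and SHP targets, Baat, which conjugates bile acids, was the single call, higher in αERKO on the high-fat diet (0.54 ± 0.11, adjusted p = 0.0209), a call lost on leaving out any 1 of WT high-fat replicates 1, 2 and 3 or αERKO high-fat replicates 1 and 2 (adjusted p = 0.0596 to 0.116) and without the arrays high in acinar markers (adjusted p = 0.174) or in muscle markers (adjusted p = 0.0853), and in 9 of 26 alternatives in all.

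Among 5 thyroid hormone receptor targets, Dio1, the hepatic deiodinase, rose with high-fat diet in αERKO (1.31 ± 0.15, adjusted p = 0.000825), a call that held in all 26 alternatives. Ccnd1, cyclin D1, 1 of 7 estrogen receptor targets, was lower in αERKO on the normal diet (-2.27 ± 0.23, adjusted p = 8.59e-05) and on the high-fat diet (-2.42 ± 0.23, adjusted p = 6.75e-05), and 0 others of that list were called. Zbtb16, a zinc finger factor and 1 of 14 glucocorticoid receptor targets, was higher in αERKO on the normal diet (1.20 ± 0.22, adjusted p = 0.0155), a call lost on leaving out any 1 of WT normal replicates 1 and 2 or αERKO normal replicates 1 and 2 (adjusted p = 0.0524 to 0.0713) and without the arrays high in acinar markers (adjusted p = 0.205) or in muscle markers (adjusted p = 0.0536), and in 8 of 26 alternatives in all. Of 13 HNF4 alpha targets, Pklr, the liver pyruvate kinase, was higher with high-fat diet in αERKO (1.15 ± 0.20, adjusted p = 0.0225), a call lost on leaving out any 1 of αERKO normal replicates 1 and 3 or αERKO high-fat replicates 1 and 2 (adjusted p = 0.0501 to 0.133) and without the arrays high in acinar markers (adjusted p = 0.144) or in muscle markers (adjusted p = 0.297), and in 10 of 26 alternatives in all. Apoa2, an apolipoprotein of HDL, was lower in αERKO on the normal diet (-0.39 ± 0.09, adjusted p = 0.0441), a call lost on leaving out any 1 of WT normal replicates 1, 2 and 3, WT high-fat replicates 1 and 3, αERKO normal replicates 1, 2 and 3 or αERKO high-fat replicates 1 and 2 (adjusted p = 0.0503 to 0.157) and without the arrays high in acinar markers (adjusted p = 0.246) or in muscle markers (adjusted p = 0.18), and in 20 of 26 alternatives in all. The 5 tested retinoic acid receptor targets had 0 calls.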

How the data were processed

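Total RNA was labelled with a 3′ IVT kit and hybridised to 1 array per sample, per the labels' protocols. The authors deposited a linear intensity (MAS5 signal) per probe set. Per the submitters' processing notes the software was Affymetrix Expression Console with the MAS5 method, and its version is not given in the sources used here. A trimmed mean (2% off each end) was 500 on each array, which shows that arrays had been scaled. MAS5 treats arrays separately, and signals near background scatter widely on a log scale.

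Probe sets with 1 symbol in the platform annotation were used (34958 of 45101). The probe set with the highest mean stood for a gene, and values were log2(signal + 16). A mean per group was fitted to the 12 arrays in R 4.3.3 with limma 3.58.1 (eBayes with intensity trend, 8 residual and 5.85 prior degrees of freedom, two-sided), checked on simulated data. All passing probe sets (21558) were fitted alike.

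The members and lists were chosen with earlier results of these data known. Values on every array are given for members called in a comparison, for the 3 smallest unadjusted p-values in each comparison and for a fixed list of liver receptors (Ppara, Pparg, Nr1h3, Nr1h4, Nr1i2, Nr1i3, Nr0b2, Nr5a2, Hnf4a, Rxra, Nr3c1, Thrb, Rora, Esrra and Esr1). Esrrg, Rarb, Rxrg and Nr2c2 are given in part for the group in which they stood out, after their values were seen. Of the lists, called genes are named. Alternatives covered scaling, pseudocount, filter, probe set choice, variance model, array weights, single samples, replicate numbers and arrays with other tissues' transcripts. Probe sets are given without genome coordinates. The number of arrays limits the precision, and the median standard error was 0.202 for 2 groups.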

Additional observations from a re-analysis of the deposited data

Results flagged for a closer look

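On the brightest probe set, the genotype difference of Rora ran in opposite directions on the 2 diets with no overlap of samples: all 3 αERKO samples lay above all 3 WT samples on the normal diet and below them on the high-fat diet. The difference itself was tested as the interaction, which was -0.68 (unadjusted p = 0.00062) and did not pass over all genes (adjusted p = 0.373, and between 0.135 and 0.997 over 25 alternatives, in which it stayed negative, from -0.75 to -0.22). Other probe sets bear out the normal-diet direction only in part. Of the 8 tested, 3 were higher in αERKO on that diet without overlap and 5 overlapped, and 2 were lower than in WT. As the mean of probe sets the normal-diet difference was 0.0038.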

How the results depend on the processing

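With 1 choice changed at a time, 15 differences of named members were recomputed in 25 or 26 settings each, 386 values in all. Of these values 370 kept their direction and side of the threshold and 0 reversed. The call was lost in 14 (all of Rora for diet in αERKO) and gained in 2 (Nr1i2 and Rora for genotype on the high-fat diet, with array weights). Only Esr1 for genotype and Rora for diet in αERKO were called at the start, so most of the 370 are uncalled differences that stayed uncalled. Esr1 stayed called on both diets, from -2.29 to -1.75 and from -2.14 to -1.72. The number of members called for diet in αERKO was 0 instead of 1 with median centring, the mean of probe sets, no intensity trend, only the groups compared, marker scores as covariates, and without the arrays high in acinar or muscle markers. It ranged from 0 to 1 with single samples left out. For genotype on the high-fat diet it was 6 with array weights (Esr1, Nr1i2, Nr2c2, Ppara, Rora and Rxrg) and 1 to 2 with single samples left out. Without a filter, 0 member probe sets were called for diet in αERKO. Counts over all genes moved by more than 1.5 times: 9 for diet in WT became 0 (no intensity trend, or without the arrays high in acinar markers) to 24 (signal above the median on all 12 arrays), 59 for diet in αERKO became 12 (no trend) to 187 (array weights), 150 for genotype on the normal diet became 71 (only the groups compared) to 152 (pseudocount 64), and 243 on the high-fat diet became 60 (without the arrays high in acinar markers) to 944 (array weights). With the replicate block the members called were 0, 1, 1, 1 and 0, as without it. Same-numbered samples of different groups correlated from -0.30 to 0.21 and other-numbered ones from -0.25 to 0.28, and 5 of 12 matched best with their own number. Whether same-numbered samples share more than a number cannot be told from these values. Dim members limit what the arrays can show.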
